A study of Mus musculus with 4 samples.

Results

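The genes described here are the ligands, receptors, Smads, Id genes, secreted antagonists, latency proteins and regulators of TGF-beta and BMP signalling in mouse colon tumours. They were taken from the deposited gene count table by symbol, with families such as Tgfb, Bmp, Smad, Acvr, Gdf and Ltbp taken by prefix and genes such as Id1, Fst, Eng and Tgif1 by name, which gave 54 of the 14979 genes. The tumours arose in mice given azoxymethane, a carcinogen, and dextran sulfate sodium, which inflames the colon (AOM/DSS). In the IgG group 2 mice had received a control IgG antibody, and in the MAdCAM1 group 2 mice had received an antibody against MAdCAM-1, the venule adhesion molecule through which lymphocytes enter the gut. Both groups carried AOM/DSS tumours, and mouse strain, sex, age, antibody dose and how these mice were selected are not given in the sources used here. RNA was measured by CAGE, which counts tags from capped 5′ ends, so a level does not depend on the length of the gene. Levels are CPM (tag counts scaled to a common depth with TMM factors). Log2 fold changes are MAdCAM1 over IgG, and values for the 4 libraries are given in the order IgG 1, IgG 2, MAdCAM1 1, MAdCAM1 2.

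TGF-beta family ligands are secreted dimers that bring together type II and type I receptor kinases. TGF-beta and activin receptors phosphorylate Smad2 and Smad3, BMP receptors phosphorylate Smad1, Smad5 and Smad9, and both sets enter the nucleus with the shared partner Smad4. In the colon, BMP signals are highest near the surface, where they favour differentiation, and antagonists such as gremlin, made by cells beneath the crypt base, keep them low around stem cells. The Id genes, which encode inhibitors of basic helix-loop-helix transcription factors, are direct BMP targets. TGF-beta restrains epithelial growth and drives matrix production in stroma, and colon tumours often lose parts of the pathway.

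Letters from the promoter windows of RefSeq are shown because CAGE reads the start of each transcript. They cover the 3 members with an unadjusted p under 0.05 in edgeR's quasi-likelihood test (Gdf11, Smad1 and Bmpr2). The Id genes with an entry in the RefSeq promoter table (Id2 and Id3) are shown too. The table (build GRCm38.p6) matched 39 of the 52 tested members, and the 250 bases before each start were searched on both strands for GGCGCC, a BMP-responsive motif, for GTCT, the short Smad-binding element (AGAC on the other strand), and for the TATA motif TATAAA. GTCTAGAC and CCAAT were searched too. Each window was placed by exact match in GRCm39. Matches are in capitals. For Gdf11 and Smad1 the part upstream of every annotated exon is printed, and for the others the letters around each match. The windows of Bmpr2, Id2 and Id3 lie wholly within annotated exons of GENCODE M39, so these letters are transcribed sequence by that annotation.
Gdf11, chr10:128727748-128727837, minus strand: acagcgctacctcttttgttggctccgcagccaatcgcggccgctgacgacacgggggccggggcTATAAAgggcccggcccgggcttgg
Smad1, chr8:80126169-80126307, minus strand: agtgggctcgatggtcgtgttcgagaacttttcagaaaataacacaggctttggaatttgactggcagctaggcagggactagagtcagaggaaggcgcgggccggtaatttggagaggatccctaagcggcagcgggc
Bmpr2, chr1:59803323-59803348, plus strand: ccggcggccgGGCGCCgctgcctgcc
Id2, chr12:25146307-25146332, minus strand: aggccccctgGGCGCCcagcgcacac
Id2, chr12:25146098-25146127, minus strand: gagtgcacataaaAGACgccccgcccggct
Id3, chr4:135870954-135870983, plus strand: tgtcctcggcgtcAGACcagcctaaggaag
Id3, chr4:135871052-135871081, plus strand: tggacccttggcgGTCTgttttgaataagg
GGCGCC stood in 15 of the 52 windows of members (28.8%) and in 16.1% of all 13499 windows of listed genes. These 52 windows belong to 39 members and the 13499 to 10555 genes, so a gene with several starts counts more than once. GTCT stood in 82.7% and 80.8%, and TATAAA in 5.77% and 7.12%. CCAAT stood in 26.9% and 35.4%, and GTCTAGAC in 0.0% and 0.222%. The 250-base window of Smad1 held 1 CCAAT and no match of the other motifs, and that of Gdf11 held 1 TATAAA and 2 CCAAT alone. A match describes the letters and is no measure of binding.

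The libraries held 14850923 to 16891234 tags, so that 1 tag equals 0.0592 to 0.0673 CPM, and the members took 0.203% to 0.256% of the tags. Epithelial markers had summed levels of 6720, 6000, 10600 and 9120 CPM. Of these, 7 of 8 had both MAdCAM1 values above both IgG values, beside 19.7% of all tested genes. Markers of stroma differed between libraries of the same group. Smooth muscle markers (6 of 9 tested, among them Des, Cnn1 and Acta2) summed to 1690, 107, 126 and 1900 CPM, so that IgG 1 and MAdCAM1 2 were high. Fibroblast markers (10 of 10, among them Col1a1 and Dcn) summed to 440, 1280, 463 and 1660 CPM, and leukocyte markers (11 of 11) to 301, 832, 312 and 1380 CPM. Both sums were high in IgG 2 and MAdCAM1 2 and rest on their abundant genes: the fibroblast markers Lum and Dpt and the lymphocyte markers Cd79a, Cd3g and Cd3e were lower in IgG 2 than in IgG 1. Endothelial markers (8 of 10, among them Pecam1 and Cdh5) summed to 55.1, 68.0, 24.6 and 105 CPM. No tested marker was at 0 in any library. Mesothelial cells had 1 of 4 markers tested, at 1.67 CPM or less, and glial markers were not analysed here.

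In the comparison of MAdCAM1 with IgG tumours, which asks how blocking this adhesion molecule alters the tumours, edgeR's quasi-likelihood F test called 0 of the 52 tested members, with p-values adjusted (Benjamini-Hochberg) over all 14331 tested genes, of which 0.0% were called. The smallest adjusted p of a member was 0.665. At an unadjusted p under 0.05 in that test, 3 members were found, against 6.92% of all genes. These were Gdf11, Smad1 and Bmpr2, all lower in MAdCAM1 (background 1.82%), and 0 were higher (background 5.09%). This set depended on the test. By DESeq2, 4 members had an unadjusted p under 0.05: Gdf11, Smad1 and Id3, lower in MAdCAM1, and Smad4 (DESeq2 unadjusted p = 0.0483), higher. Bmpr2 was not among them (DESeq2 unadjusted p = 0.0546). The share of all genes was not computed for that count. DESeq2 and edgeR's exact test, which called 1.67% and 1.12% of all genes, also called 0 members, as did limma-voom, which called 0.0%. Values lay below both IgG libraries in both MAdCAM1 libraries for 12 members (23.1%, background 18.7%) and above for 5 (9.62%, background 19.7%), so that 17 of 52 were without overlap (background 38.4%). Without MAdCAM1 2 the counts below and above were 30 and 8, and without MAdCAM1 1 they were 18 and 22. Fewer libraries leave less room for overlap in any gene, and the shares of all genes were not computed for these counts. They cannot be set beside the backgrounds above. The median log2 fold change of the members was -0.13, and that of all genes was 0.00. Scaled by library size alone, which moved the median of all genes to -0.10, 17 members were lower in both and 2 higher in both, with backgrounds of 28.6% and 13.6%. With 1 library left out, the median ran from -0.38 without MAdCAM1 2 to 0.02 without MAdCAM1 1.

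**Figure D1:**
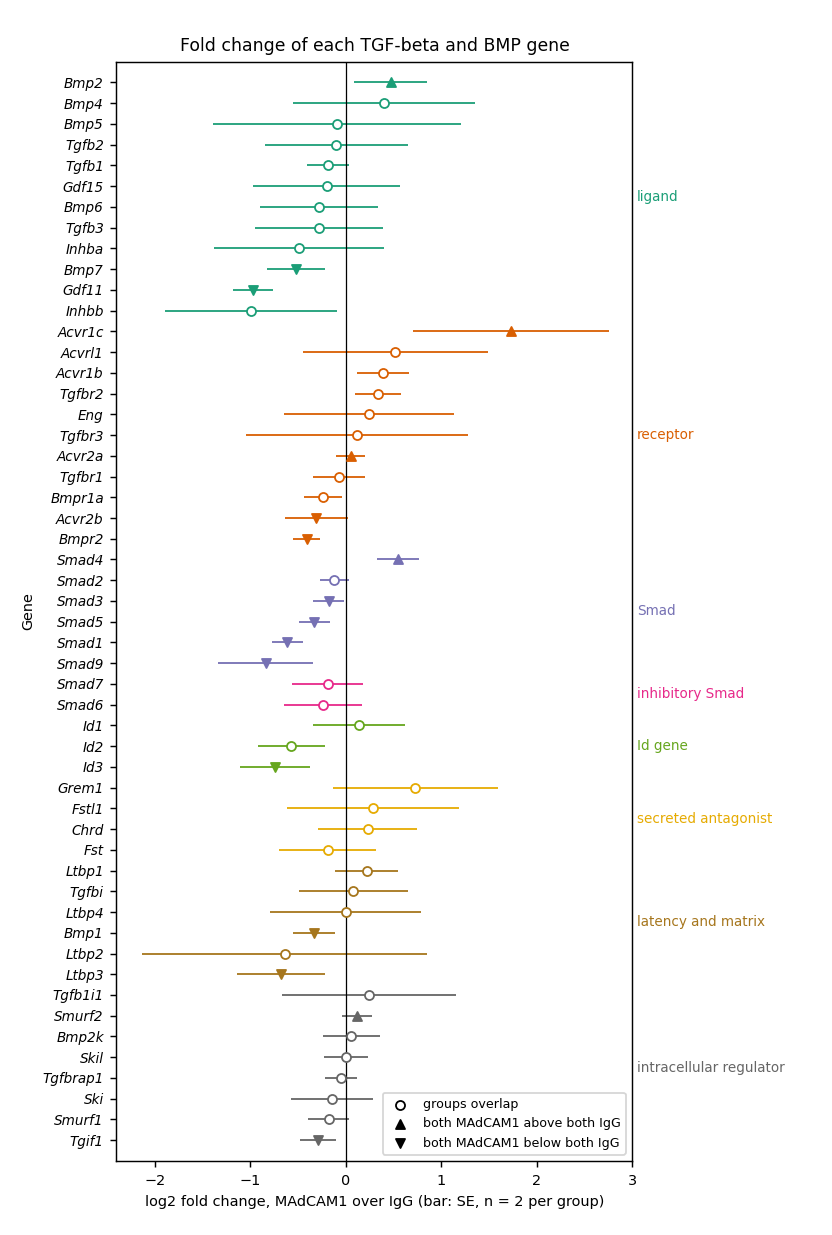
Log2 fold change (horizontal axis, MAdCAM1 over IgG, no unit) of the 52 tested genes, in rows grouped by role, with bars for the SE at n = 2 per group; filled triangles mark the 17 genes without overlap between groups. The lowest estimates with short bars are those of Gdf11 (-0.97) and Smad1 (-0.61), and Smad4 is the Smad with an estimate above 0 (0.55).

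By role, both MAdCAM1 values lay below both IgG values for 2 of 12 ligands (Gdf11 and Bmp7), 2 of 11 receptors (Bmpr2 and Acvr2b), 4 of 6 signalling Smads (Smad1, Smad3, Smad5 and Smad9), 0 of 2 inhibitory Smads and 1 of 3 Id genes (Id3), beside 18.7% of all genes. Both lay above for 1 ligand (Bmp2), 2 receptors (Acvr1c and Acvr2a), 1 Smad (Smad4) and 0 Id genes, beside 19.7% of all genes. Smad5 has the same values as 3 other genes of the table, so its tags cannot be assigned to it alone. The roles are small groups and were not tested against other genes.

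Gdf11 (chromosome 10, 128718164 to 128727747, GRCm39), a ligand close to myostatin that signals through activin type II receptors, had IgG values of 31.0 and 40.8 CPM and MAdCAM1 values of 17.4 and 19.2 CPM. Means were 35.9 ± 6.89 CPM (SD, n = 2) and 18.3 ± 1.27 CPM (SD, n = 2), so that the groups lay further apart than the mice within them. The log2 fold change of -0.97 (SE 0.21) had an unadjusted p of 0.00794 in edgeR's quasi-likelihood test and an adjusted p of 0.665. The adjusted p was 0.0702 by DESeq2, 0.240 by edgeR's exact test and 0.657 by limma-voom. Its receptors act on Smad2 and Smad3.

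Smad1 (chromosome 8, 80065023 to 80126168), a transducer of BMP signals, had IgG values of 116 and 96.2 CPM and MAdCAM1 values of 65.4 and 73.6 CPM (log2 fold change -0.61, SE 0.16; edgeR unadjusted p = 0.0179, adjusted p = 0.691). Its groups did not overlap, and the higher MAdCAM1 value was below the lower IgG value. Smad5, with the same task, stood at 45.2 and 47.4 against 39.8 and 34.0 CPM (log2 fold change -0.33, SE 0.16). Its values equal those of 3 other, unnamed genes of the table, so its tags cannot be assigned to it alone. Smad9, the third BMP-activated Smad, was rare, with 38, 46, 26 and 15 tags (log2 fold change -0.84, SE 0.50). All 3 lay lower in both MAdCAM1 libraries, as did 18.7% of all genes. The log2 fold change of Smad9 was -0.46 without MAdCAM1 2 and -1.36 without MAdCAM1 1.

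Bmpr2 (chromosome 1, 59802544 to 59918173), the type II receptor of BMPs, had IgG values of 70.1 and 67.5 CPM and MAdCAM1 values of 49.6 and 54.2 CPM (log2 fold change -0.41, SE 0.14; edgeR unadjusted p = 0.0358, adjusted p = 0.691). Values within each group were close to each other. Bmpr1a, a type I receptor of BMPs, overlapped at 144, 110, 98.3 and 116 CPM. Of the type II receptors shared by activins and BMPs, Acvr2a stood at 25.3, 25.6, 26.9 and 25.8 CPM, with a log2 fold change of 0.05 that turned to -0.05 under scaling by library size, and Acvr2b stood at 5.58, 6.0, 5.32 and 4.01 CPM (log2 fold change -0.31, SE 0.33). Both estimates were smaller than their SE.

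Among the BMP ligands, Bmp7 was measured at 34.4 and 58.3 CPM for IgG tumours against 31.4 and 33.3 CPM (log2 fold change -0.52, SE 0.30). Without IgG 2, the highest library, the log2 fold change was -0.10. Bmp2, a ligand of differentiated colon epithelium, lay the other way, at 5.63 and 10.5 against 10.6 and 11.8 CPM (log2 fold change 0.47, SE 0.38). Its nearest values between groups, 10.5 and 10.6 CPM, were almost equal, and the log2 fold change was 0.08 without IgG 1 and 0.99 without IgG 2. Markers of differentiated colonocytes (10 of 10 tested, 9 of them higher in both MAdCAM1 libraries, background 19.7%) summed to 524, 358, 1480 and 1320 CPM. Their part in the Bmp2 values was not tested. Bmp4, a ligand of intestinal mesenchyme, overlapped at 5.63, 26.6, 9.87 and 32.7 CPM, with IgG 2 and MAdCAM1 2 high, the libraries with the high fibroblast sums given above. The part of these cells in the Bmp4 values was not tested. In bulk tissue, fewer cells of a type and less RNA per cell cannot be told apart.

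The Id genes differed in their order over the libraries. Id3 (chromosome 4, 135870808 to 135873066), the member with the highest mean level over the 4 libraries, had IgG values of 328 and 417 CPM and MAdCAM1 values of 292 and 155 CPM (log2 fold change -0.74, SE 0.37; edgeR adjusted p = 0.760). Without MAdCAM1 2 its log2 fold change was -0.35, and without MAdCAM1 1 it was -1.27. Id2 overlapped at 46.3, 70.4, 48.8 and 29.9 CPM (log2 fold change -0.57, SE 0.35). Id1 was highest in MAdCAM1 1 and lowest in MAdCAM1 2, at 125, 103, 179 and 72.1 CPM (log2 fold change 0.14, SE 0.48), and its sign turned to -0.66 without MAdCAM1 1. All 3 were lowest in MAdCAM1 2, as were 27.8% of all genes. Their sum, mostly Id3, was 257 CPM in that library, against 500, 590 and 521 CPM in IgG 1, IgG 2 and MAdCAM1 1.

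The inhibitory Smads, which are induced by the pathway and block its receptors, were high and low in the same libraries as Id2. Smad6, which acts mainly on BMP receptors, stood at 28.5, 52.6, 42.5 and 26.0 CPM, and Smad7, which acts on both branches, at 37.2, 55.1, 51.8 and 29.1 CPM. Both overlapped between the groups (log2 fold changes -0.24, SE 0.41, and -0.19, SE 0.37). In all, 9 of 52 members were highest in IgG 2 and lowest in MAdCAM1 2 (17.3%, background 15.2%), among them Id2, Id3, Smad5, Smad6, Smad7 and Smad9.

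**Figure D2:**
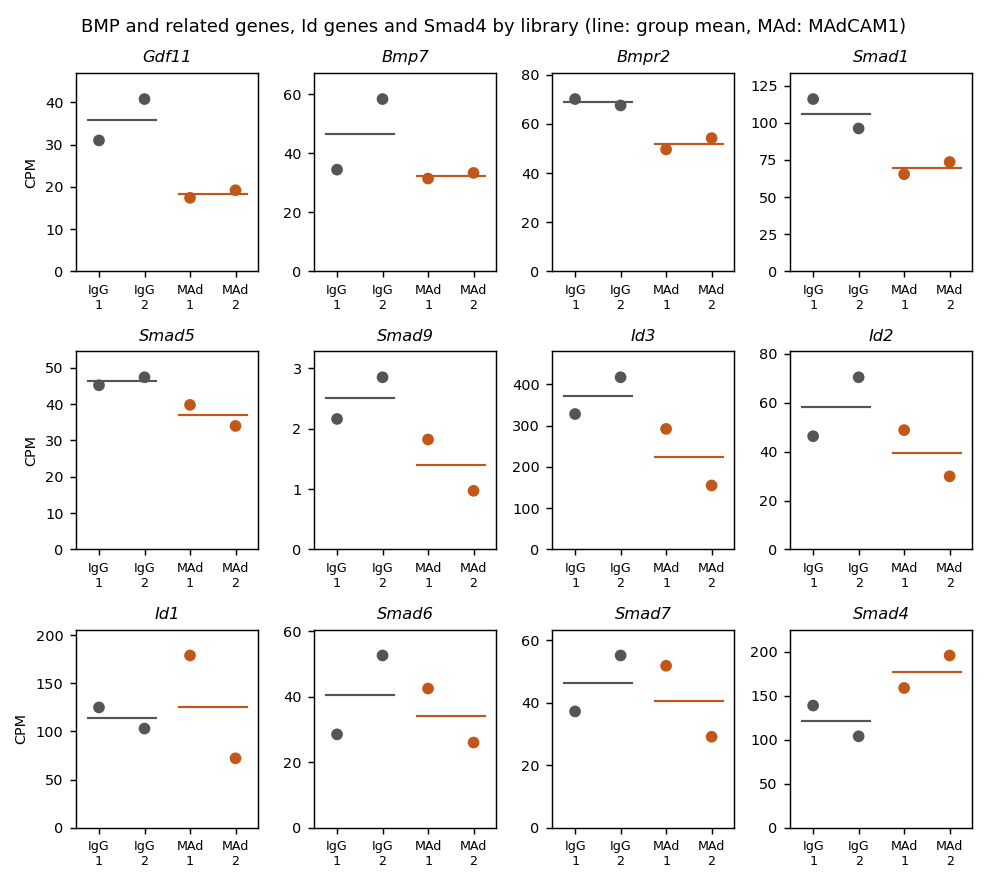
CPM (vertical axes from 0) in each library for Gdf11, Bmp7, Bmpr2, Smad1, Smad5, Smad9, the Id genes, the inhibitory Smads and Smad4. Points are libraries and lines are group means. The genes shown are a selection. Bmp2 (5.63 and 10.5 against 10.6 and 11.8 CPM) and Acvr2a, higher in both MAdCAM1 libraries, are not shown. Acvr2b, lower in both, is not shown either. The MAdCAM1 points lie below both IgG points for Gdf11, Bmp7, Bmpr2, Smad1, Smad5, Smad9 and Id3, and above them for Smad4 (159 and 196 against 139 and 104 CPM). The points of Smad5 are shared with 3 other genes.

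Transducers of the TGF-beta and activin branch had estimates close to 0. Smad2 stood at 75.0, 65.5, 62.4 and 67.1 CPM and overlapped (log2 fold change -0.12, SE 0.15). Smad3 had IgG values of 35.5 and 33.3 CPM and MAdCAM1 values of 32.6 and 28.2 CPM (log2 fold change -0.18, SE 0.16), without overlap but with neighbouring values. Smad4, the partner shared by both branches and a tumour suppressor of the colon, was higher in both MAdCAM1 libraries at 159 and 196 CPM, where the IgG values were 139 and 104 CPM (log2 fold change 0.55, SE 0.22; edgeR adjusted p = 0.731). Smad4 was thus above its IgG values in the tumours in which Smad1 was below its own.

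The receptors of this branch mostly overlapped. Tgfbr1, the type I receptor of TGF-beta, stood at 39.1, 62.9, 48.5 and 48.9 CPM. Tgfbr2, the type II receptor, stood at 64.4, 87.9, 83.0 and 110 CPM (log2 fold change 0.34, SE 0.24), with 1 MAdCAM1 value inside the IgG range. The activin type I receptor Acvr1b stood at 63.9, 41.1, 75.1 and 62.2 CPM (log2 fold change 0.39, SE 0.27) and also overlapped. Acvr1c, a type I receptor for nodal and activins, had 23, 2, 29 and 43 tags and the highest estimate of any member (log2 fold change 1.73, SE 1.03; edgeR adjusted p = 0.797), which rests on the 2 tags of IgG 2: it was 0.87 without that library.

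TGF-beta ligands did not separate the groups. Tgfb1, the main ligand of the branch and made by leukocytes and stroma, stood at 64.0, 66.4, 46.9 and 67.2 CPM (log2 fold change -0.19, SE 0.22), so that 3 libraries were alike and MAdCAM1 1 was lower. Tgfb2 had 88, 62, 23 and 102 tags, again lowest in MAdCAM1 1. Tgfb3 stood at 21.7, 9.22, 6.86 and 18.6 CPM and was high in IgG 1 and MAdCAM1 2, the libraries with the high smooth muscle sums, whose part in the Tgfb3 values was not tested. The activin subunit genes were high in IgG 2 alone. Inhba stood at 7.85, 50.1, 22.2 and 19.0 CPM, and Inhbb had 22, 114, 26 and 36 tags. Gdf15, a stress-induced cytokine of the family, was rare at 22, 60, 44 and 19 tags.

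Secreted antagonists overlapped between the groups in 4 of 4 cases, with a median log2 fold change of 0.26. Grem1, which binds BMPs and is made by muscle and fibroblasts under the crypts, stood at 26.4, 22.6, 11.6 and 69.6 CPM (log2 fold change 0.73, SE 0.86; edgeR adjusted p = 0.902). Its MAdCAM1 values held both the lowest and the highest of the 4, and without MAdCAM1 2 the log2 fold change was -1.08. Fstl1, a follistatin-like glycoprotein of mesenchyme, had the same order of MAdCAM1 libraries at 18.4, 30.7, 8.40 and 51.5 CPM. Fst, which binds activins, stood at 10.9, 4.70, 5.74 and 7.96 CPM, and Chrd, which binds BMPs, had 49, 23, 29 and 45 tags. Nog and Id4 were not analysed here.

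Latent TGF-beta is stored in the matrix on LTBP proteins, and several of these genes varied widely between mice of 1 group. Ltbp4 stood at 76.3, 58.3, 22.4 and 113 CPM, a 5.03-fold range with a log2 fold change of 0.00 (SE 0.79). Ltbp1 stood at 27.5, 18.8, 20.9 and 33.0 CPM (log2 fold change 0.22, SE 0.33), and Ltbp2 had 100, 23, 2 and 68 tags. IgG 1 and MAdCAM1 2 were high for all 3. Ltbp3 was lower in both MAdCAM1 libraries at 13.0 and 11.9 against 4.69 and 10.9 CPM (log2 fold change -0.68, SE 0.46), and so was Bmp1, the protease that frees ligands and processes collagen, at 46.4 and 53.3 against 33.4 and 45.9 CPM (log2 fold change -0.33, SE 0.22). For both the MAdCAM1 2 value lay close to the IgG range: without MAdCAM1 1 the log2 fold change was -0.20 for Ltbp3 and -0.12 for Bmp1, and without MAdCAM1 2 it was -1.41 and -0.58.

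Among the remaining membrane and matrix genes, the coreceptor Tgfbr3 stood at 13.0, 5.94, 1.68 and 19.0 CPM, an 11.3-fold range. The endothelial coreceptor Eng stood at 6.60, 21.8, 6.79 and 26.7 CPM (log2 fold change 0.24, SE 0.89). Tgfbi, a matrix protein named for its induction by TGF-beta, stood at 35.1, 50.9, 23.0 and 67.7 CPM. These 3, like Grem1 and Fstl1, were highest in MAdCAM1 2. In all, 12 of the 52 members (23.1%, background 7.41%) were highest in MAdCAM1 2 and lowest in MAdCAM1 1, which is the spread within 1 group. They were Grem1, Fstl1, Ltbp4, Tgfbr3, Tgfbi, Tgfb1, Tgfb2, Bmp6, Acvrl1, Tgfb1i1, Ski and Bmp2k. Fibroblast, endothelial, leukocyte and smooth muscle sums were also highest in MAdCAM1 2, and the endothelial sum was lowest in MAdCAM1 1. The part of these cells in the members' values was not tested.

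**Figure D3:**
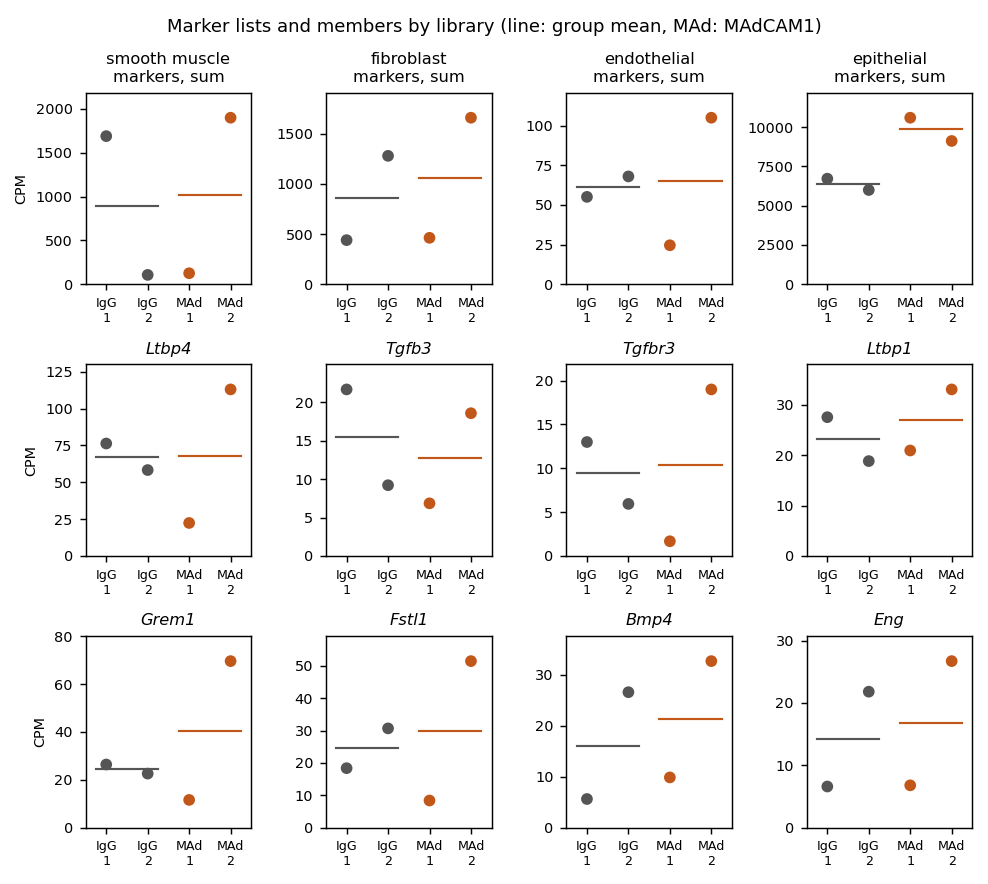
Summed CPM of marker lists (top row) and CPM of members (other rows) in each library, vertical axes from 0, with lines for group means. Ltbp4, Tgfbr3, Grem1 and Fstl1 are lowest in MAdCAM1 1 and highest in MAdCAM1 2. The fibroblast sum (1660 CPM) and the smooth muscle sum (1900 CPM) are also highest in MAdCAM1 2. Neither sum is lowest in MAdCAM1 1: the fibroblast sum is lowest in IgG 1 (440 CPM) and the smooth muscle sum in IgG 2 (107 CPM).

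Regulators inside the cell had log2 fold changes between -0.29 and 0.24 and 2 of 8 members without overlap, beside 38.4% of all genes. Tgif1, a homeodomain corepressor of Smad2 and Smad3, was lower in both MAdCAM1 libraries at 110 and 115 against 106 and 78.5 CPM (log2 fold change -0.29, SE 0.19). Smurf2, a ubiquitin ligase for receptors and Smads, was higher in both at 27.0 and 25.3 against 27.6 and 29.2 CPM (log2 fold change 0.12, SE 0.16), a difference below its SE, and it shares its values with 1 unnamed gene. Smurf1, its paralogue, overlapped at 93.3, 70.8, 64.0 and 80.4 CPM. Of the Ski family corepressors, Skil stood at 145, 165, 182 and 129 CPM (log2 fold change 0.00, SE 0.23) and Ski at 35.4, 23.4, 17.6 and 35.7 CPM. Bmp2k and Tgfbrap1 carry family names by origin, and stood at 33.3 to 56.7 CPM and 19.0 to 20.8 CPM over the 4 libraries.

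**Figure D4:**
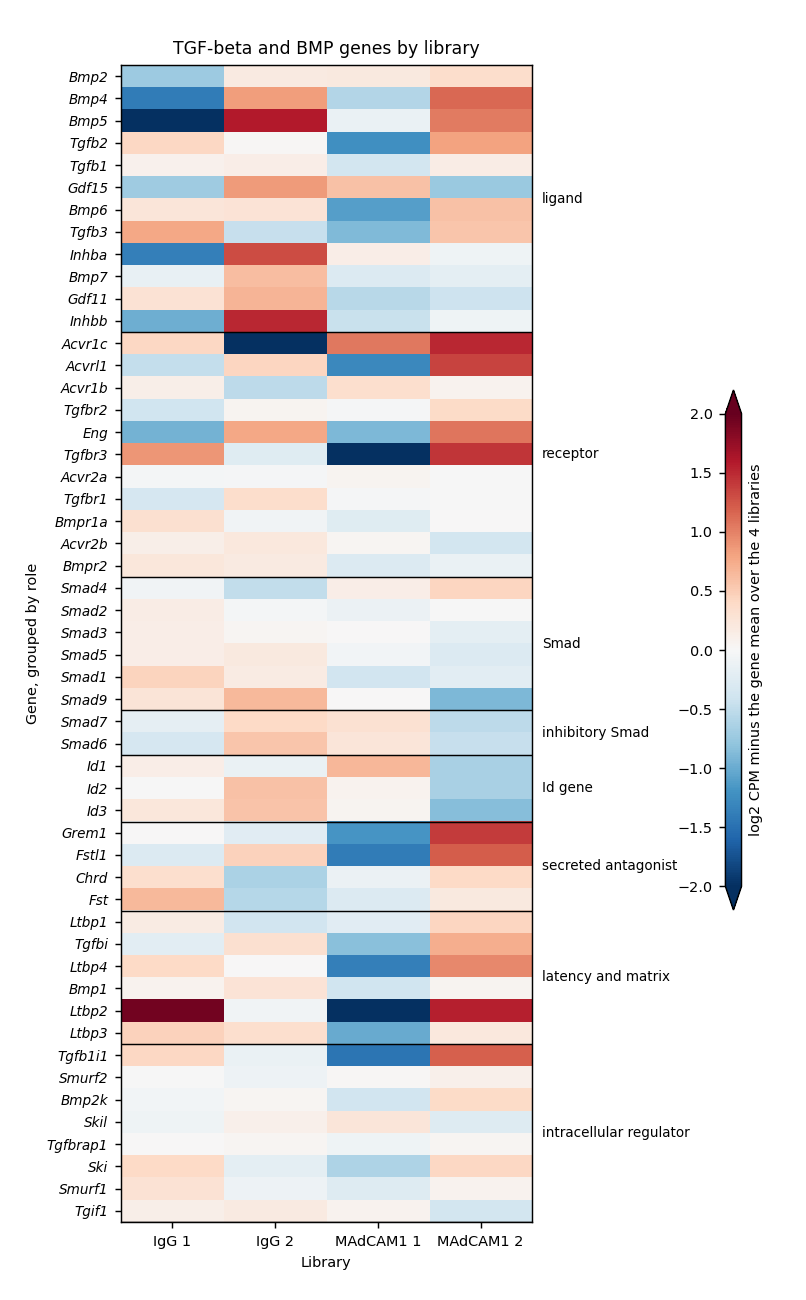
Log2 CPM of each tested gene minus its mean over the 4 libraries (colour, with larger values shown at the ends of the scale), with genes in rows by role and libraries in columns. The MAdCAM1 1 column is the lowest for 24 of 52 genes (background 21.8%) and the MAdCAM1 2 column the highest for 21 (background 24.2%). The MAdCAM1 2 column is the lowest for 12 (23.1%, background 27.8%), among them all 3 Id genes and both inhibitory Smads.

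Further genes of the pathway were taken from lists fixed by function, leaving out the members. In edgeR's test 0 of their genes were called. Known BMP response genes had a median log2 fold change of -0.70 over the 13 tested of 19 listed. Of these, 5 (38.5%, background 18.7%) were lower and 1 (7.69%, background 19.7%) higher in both MAdCAM1 libraries. Single libraries stood out in this list: 7 genes (53.8%, background 29.3%) were highest in IgG 2, and 7 (53.8%, background 27.8%) were lowest in MAdCAM1 2. Zfp36l1, an RNA-binding decay factor, was measured at 430 and 320 CPM for IgG tumours against 211 and 253 CPM (log2 fold change -0.70, SE 0.22; edgeR adjusted p = 0.691). Bambi, a pseudoreceptor that dampens the pathway, stood at 43.1 and 72.2 against 42.0 and 30.2 CPM (log2 fold change -0.68, SE 0.33). Runx2, a transcription factor and Smad partner that like Bambi is also on the list of partners, was low at 3.70 and 2.41 against 0.910 and 1.94 CPM, while the netrin receptor gene Unc5b was higher in both at 26.1 and 23.6 against 42.4 and 30.7 CPM (log2 fold change 0.56, SE 0.22).

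Known TGF-beta response genes had a median of 0.12 over the 28 tested of 30 listed. Of these, 4 (14.3%, background 18.7%) were lower and 2 (7.14%, background 19.7%) higher in both MAdCAM1 libraries, and 18 (64.3%, background 24.2%) were highest in MAdCAM1 2. This list holds collagens and contractile genes that also serve here as fibroblast and smooth muscle markers. Its genes with the smallest p were Pthlh, a parathyroid hormone-like peptide, at 7.34 and 7.61 against 3.29 and 4.01 CPM (log2 fold change -1.03, SE 0.31; edgeR adjusted p = 0.691), Junb at 132 and 85.8 against 80.5 and 64.9 CPM, Tgm2 and Angptl4. The transglutaminase Tgm2 was higher in both at 33.1 and 33.0 against 37.4 and 77.4 CPM, and Angptl4 stood at 1.37, 2.66, 0.280 and 1.30 CPM.

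Genes listed under latent TGF-beta activation, not all of them activators, had a median of -0.11 over the 16 tested of 17 listed. Of these, 2 (12.5%, background 18.7%) were lower and 1 (6.25%, background 19.7%) higher in both MAdCAM1 libraries. Itgb6, the beta chain of the epithelial integrin that frees TGF-beta, was the higher one, measured at 26.9 and 15.7 CPM for IgG tumours against 44.7 and 35.5 CPM (log2 fold change 0.91, SE 0.32; edgeR adjusted p = 0.718). Epithelial markers, of which 7 of 8 were also higher in both (background 19.7%), are given above, and their part in the Itgb6 values was not tested. The lower ones were the protease Adamts1, at 9.96 and 8.97 against 3.43 and 4.79 CPM (log2 fold change -1.20, SE 0.32), and Furin, the convertase that cleaves proligands, at 110 and 96.0 against 74.4 and 82.2 CPM (log2 fold change -0.40, SE 0.15). Mmp14, a membrane protease, overlapped at 244, 367, 250 and 190 CPM.

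Intracellular partners and Smad regulators had a median of -0.12 over the 34 tested of 39 listed, with 10 (29.4%, background 18.7%) lower and 4 (11.8%, background 19.7%) higher in both. Zfyve9, the anchor that presents Smad2 and Smad3 to the receptor, stood at 27.2 and 28.0 against 20.2 and 21.8 CPM (log2 fold change -0.40, SE 0.16), and the deubiquitinase Usp11 at 11.3 and 13.0 against 8.54 and 8.61 CPM. Other extracellular regulators had a median of 0.38 over the 11 tested of 24 listed. Of these, 0 (background 18.7%) were lower and 1 (9.09%, background 19.7%) higher in both, and 7 (63.6%, background 24.2%) were highest in MAdCAM1 2. The higher one was Fstl3, an activin-binding protein, at 1.48 and 2.41 against 2.80 and 3.69 CPM. The protease Htra1 stood at 180, 526, 200 and 147 CPM and was high in IgG 2 alone, Twsg1 stood at 83.3, 103, 64.4 and 92.3 CPM, and Rgma, a BMP coreceptor, at 10.2, 1.48, 8.47 and 12.6 CPM.

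The remaining ligands and a receptor had few tags in at least 1 library. Bmp3, an inhibitory ligand of normal colon, had 9, 0, 6 and 4 tags, and Bmp8b had 2, 3, 2 and 3 tags. Both were too low to be tested. Bmp5, a mesenchymal ligand, had 5, 78, 21 and 51 tags, Acvrl1, an endothelial type I receptor, had 26, 45, 12 and 81 tags, and Bmp6 had 115, 109, 37 and 129 tags. The groups overlapped for Bmp5, Acvrl1 and Bmp6.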

How the data were processed

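CAGE libraries of 4 tumours were used, 2 per group. Per the labels' protocols, the authors mapped 75 nt tags to GRCm39 with BWA 0.7.17 and HISAT2 2.0.5, clustered them with RECLU, and dropped clusters that were weak or not shared between replicates (bedtools 2.12.0), and used edgeR 3.22.5 for their own comparison. The step from clusters to genes is not given in the sources used here. The deposited values are raw tag counts per gene. No column was left out. Here, genes were filtered with filterByExpr (14331 of 14979 kept), scaled by TMM and tested two-sided in R 4.3.3 with edgeR 4.0.16 (glmQLFit with robust dispersions, glmQLFTest) with Benjamini-Hochberg adjustment over all tested genes at 0.05. The SE is the log2 fold change over the root of F. Alternatives used DESeq2 1.42.0 and limma 3.58.1, and the tests were tested on simulated data. Same-numbered libraries came from different mice, and no block was used. Gene positions are from GENCODE M39. Members without overlap between groups and with a mean of at least 1 CPM, a set of core genes, and up to 4 genes per pathway list with the smallest p are named. Ltbp2, Ltbp4, Tgfbr3, Tgfbi, Tgfb1i1, Acvrl1, Bmp5, Bmp6, Bmp2k and Tgfbrap1 were named after their values were seen. The members, lists and core genes were chosen with earlier results of these data known. The p-values set the group difference against the spread between mice, with n = 2 per group.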

Additional observations from a re-analysis of the deposited data

How the results depend on the processing

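With 14 alternatives in all for each of the 42 core and non-overlapping members, 0 members were called under any of them, and the smallest adjusted p of a member was 0.0702 (Gdf11 by DESeq2). The number of all genes called was 0 in the main test, 239 by DESeq2 and 161 by edgeR's exact test, with 991 genes (6.92%) at an unadjusted p under 0.05. Members higher in both MAdCAM1 libraries numbered 5, and 3 under upper quartile and 2 under library size scaling. With a library left out, they ranged from 8 to 22 and those lower in both (12) from 18 to 30, where fewer libraries leave less room for overlap. The replicate numbers share no mouse, and deviations of same-numbered libraries correlated at -0.135. Members with an unadjusted p under 0.05 numbered 3 in the main test. They numbered 4 by DESeq2, 2 by edgeR's exact test and 4 under library size scaling. With a replicate block they numbered 1, and with crossed numbers, chosen after seeing the data, 6. Without a library they ranged from 3 to 8. No other call changed with the block. Of the 42 members, 21 kept their direction under every alternative, and 20 reversed when a library was left out. The 17 members without overlap entered the set by that separation, so leaving out a library could hardly reverse them. The count of 21 is therefore no measure of how stable the members are.

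Acvr2a turned to -0.05 under library size scaling. Inhba (-0.49) turned to 0.08 by limma-voom and 0.03 with either replicate block, and Fstl1 (0.29) to -0.15 by limma-voom, -0.17 with the replicate block and -0.16 with crossed numbers. Skil, at 0.00, moved to 0.00 under RLE scaling, without a filter and by DESeq2, to -0.02 under upper quartile scaling, by limma-voom and with either replicate block, and to -0.10 under library size scaling. With a library left out, log2 fold changes that changed sign ranged from -0.47 to 0.04 for Tgfb1, -1.45 to 0.58 for Tgfb2, -1.17 to 0.46 for Tgfb3, -0.70 to 1.92 for Bmp4, -1.01 to 0.77 for Gdf15, -1.30 to 1.38 for Inhba, -1.77 to 0.72 for Inhbb, -0.39 to 0.31 for Tgfbr1, -1.06 to 1.35 for Eng, -0.64 to 0.26 for Smad6, -0.67 to 0.17 for Smad7, -0.66 to 0.65 for Id1, -1.08 to 1.51 for Grem1, -0.18 to 0.78 for Chrd, -0.68 to 0.53 for Fst, -1.55 to 1.07 for Fstl1, -0.15 to 0.51 for Ltbp1, -0.37 to 0.02 for Smurf1, -0.74 to 0.28 for Ski and -0.27 to 0.23 for Skil. Among members without overlap, ranges with the same sign but over 1.5 times apart included -0.53 to -0.12 for Acvr2b, -0.52 to -0.09 for Tgif1 and -0.29 to -0.08 for Smad3. The cause was not tested. A lone library in a group was assumed to vary like the others.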
